A study of Mus musculus with 2 samples.

Results

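Smooth muscle and contractile stroma of the mouse gut was described here from single-cell transcriptomes of gastrointestinal polyps and of normal duodenum. A contractile cell was a barcode with at least 500 UMIs (unique molecular identifiers, 1 per captured transcript), at least 250 genes and at most 25% mitochondrial UMIs. It also had no UMI of Ptprc, the gene of the leukocyte antigen CD45, and at least 0.5% of its UMIs from the 5 genes Acta2, Tagln, Myh11, Actg2 and Des together. The cells were thus chosen by the measured levels of these 5 genes and of Ptprc, which are given as description only. The rule found 51 cells among 11712 barcodes that passed the filters, 39 in the polyp library and 12 in the duodenum library. The polyp library, Lkb1_Het, pooled 3 mice with 1 floxed and 1 intact Lkb1 allele and the Myh11-Cre/ERT2 transgene (Lkb1flox/+;Myh11-Cre/ERT2). The duodenum library, WT, pooled 3 mice with 2 intact Lkb1 alleles and the same transgene (Lkb1+/+;Myh11-Cre/ERT2). Both groups therefore carried Cre, a recombinase that in its ERT2 form acts when a ligand such as tamoxifen is given. The labels name neither a ligand nor an age, and both samples carry duodenum as their tissue although the series design speaks of polyps, so the site of the polyps was not settled.

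Smooth muscle contracts when calcium-activated myosin light chain kinase (Mylk) phosphorylates the regulatory light chain (Myl9) of smooth muscle myosin (Myh11), which then pulls on actin filaments built from Acta2 and Actg2. Tagln and Cnn1 bind these filaments, tropomyosins (Tpm1, Tpm2) lie along them, and desmin (Des) forms the intermediate filaments of muscle. In the gut wall such cells form the muscularis propria and the muscularis mucosae, strands in the villus core and, with pericytes, the coat of blood vessels. Myofibroblasts beside the epithelium share Acta2 and Tagln with them. Stk11 encodes LKB1, a kinase that activates AMPK and related kinases. Its loss in the germline causes Peutz-Jeghers syndrome, in which hamartomatous polyps contain branching smooth muscle. The Myh11 promoter that drives Cre here is active in smooth muscle and vascular mural cells. Myh11 transcripts show current use of that promoter and not whether Stk11 was recombined.

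With 1 library per group and pooled mice, neither animals nor libraries were replicated, and the cells of a library are not replicates, so no test was possible. Genotype and tissue (polyp or normal duodenum) changed together with the library, so they cannot be told apart in any difference between Lkb1_Het and WT. Levels are summed UMIs of a set of cells, in CPM (the usual counts-per-million scale, relative to all UMIs of that set). All intervals are exact at the 95% level and cover counting error only. The libraries held 63566462 UMIs in Lkb1_Het and 39222238 UMIs in WT, the contractile cells 166748 UMIs and 57463 UMIs. The median contractile cell had 3717 UMIs in Lkb1_Het (561 to 16445) and 4687.5 UMIs in WT (582 to 9984). Of the barcode sequences, 44 occurred in both libraries and 10 of these passed the filters, none of them a contractile cell.

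The contractile cells were rare in both libraries. They made up 0.461% of the barcodes that passed the filters in Lkb1_Het (39 of 8460, interval 0.328 to 0.630%) and 0.369% in WT (12 of 3252, interval 0.191 to 0.644%). The ratio was 1.25 (0.641 to 2.62), and 1.09 (0.561 to 2.29) relative to Ptprc-free barcodes alone. The intervals overlapped, so a difference in share was not detectable at these cell numbers. Tissue pieces of 0.5 mm3 had been digested for 40 min in 0.2% collagenase and passed through a 40 µm strainer, and how many muscle cells this released from either tissue was not measured.

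Few barcodes lay near the threshold in WT and more did in Lkb1_Het. Just inside it, between 0.5 and 1% contractile UMIs, were 8 cells of Lkb1_Het and 3 cells of WT. Just outside it, between 0.25 and 0.5%, were 20 Ptprc-free barcodes of Lkb1_Het and 1 of WT. The lowest share inside was 0.519% in Lkb1_Het and 0.687% in WT, and the highest share outside was 0.485% in Lkb1_Het and 0.424% in WT. The contractile cells held 83.9% of all UMIs of the 5 genes among passing barcodes in Lkb1_Het and 96.8% in WT. In Ptprc-positive barcodes, which should lack these genes, Myh11 had a UMI in 0.234% of 1281 barcodes in Lkb1_Het and in 0% of 838 barcodes in WT. Tagln had one in 1.33% and 0%, Des in 0.781% and 0%, Acta2 in 0.859% and 0.358%, and Actg2 in 0.390% and 0.239%.

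Markers of other cell types were absent or present to different degrees. Pecam1, the platelet-endothelial adhesion molecule, and all of the other 9 blood endothelial markers had 0 UMIs in the contractile cells of both libraries. Sox10, the transcription factor of enteric glia, also had 0 UMIs in both, as did 6 of the 7 glial genes listed in Lkb1_Het and 5 of 7 in WT. The glial list still had 79 UMIs in 22 of 39 Lkb1_Het cells and 34 UMIs in 10 of 12 WT cells, of which Cryab, a small heat shock protein also found in muscle, supplied 79 UMIs and 33 UMIs. The 4 markers of interstitial cells of Cajal, the pacemaker cells of the gut, had 31 UMIs in 14 of 39 Lkb1_Het cells and 8 UMIs in 5 of 12 WT cells. Kit, their defining receptor, had 3 UMIs in 1 Lkb1_Het cell and 0 UMIs in WT, and Ano1, a chloride channel, had 18 UMIs and 6 UMIs. Epcam, an epithelial adhesion gene, had a UMI in 9 of 39 Lkb1_Het cells and in 1 of 12 WT cells. Smooth muscle markers were present in both libraries because the rule chose the cells by them, and fibroblast genes, described further on, were present beside them.

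Transcripts typical of other cells differed between the contractile cells of the 2 libraries. Tff2, a secreted peptide of gastric and Brunner gland mucous cells, had UMIs in 39 of 39 contractile cells of Lkb1_Het and in 8 of 12 of WT. The 8 genes of the gastric and Brunner mucous list summed to 17739 CPM in the contractile cells of Lkb1_Het and 470 CPM in those of WT, and per cell they took 0.608 to 12.1% and 0 to 0.310% of UMIs. Pancreatic acinar genes such as Prss2 (anionic trypsinogen) summed to 516 CPM in the contractile cells of Lkb1_Het and 6683 CPM in those of WT, and the haemoglobin gene Hbb-bs had 115 UMIs and 3 UMIs. Whether these UMIs came from free RNA, from doublets or from the cells was not tested, nor was their part in the differences described here.

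The 5 genes that chose the cells are given as a description. Acta2, smooth muscle alpha-actin, had a UMI in 39 of 39 Lkb1_Het cells and in 11 of 12 WT cells, at 8312 CPM (7880 to 8761) and 13556 CPM (12621 to 14543). Tagln, transgelin, was the most abundant at 12660 CPM in Lkb1_Het and 15036 CPM in WT, with a UMI in every contractile cell of both. Myh11 (chr16:14194535-14291372, minus strand, mm10), the smooth muscle myosin heavy chain, had a UMI in 30 of 39 Lkb1_Het cells and in 11 of 12 WT cells, at 2099 CPM (1885 to 2331) and 3098 CPM (2659 to 3588). Actg2, the gamma-actin typical of visceral muscle, reached 22 of 39 Lkb1_Het cells and 5 of 12 WT cells. Des reached 27 of 39 and 9 of 12. The contractile share of UMIs per cell ran in Lkb1_Het from 0.519% over a median of 1.84% to 6.69%, and in WT from 0.687% over 3.51% to 7.75%. The 2 ranges overlapped along nearly their whole length, with more Lkb1_Het cells at the low end: 20 of 39 Lkb1_Het cells and 3 of 12 WT cells lay below 2%. The 5 genes summed to 26285 CPM in Lkb1_Het and 37067 CPM in WT, and to 23668 CPM in WT without its 2 highest cells, at 7.75% and 5.13%. Without those cells Acta2 had a ratio of 0.818, Myh11 of 1.0004 and Actg2 of 7.81, Lkb1_Het over WT. With cells at or above 5% left out of both libraries, these ratios were 0.686, 0.998 and 5.39.

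**Figure D1:**
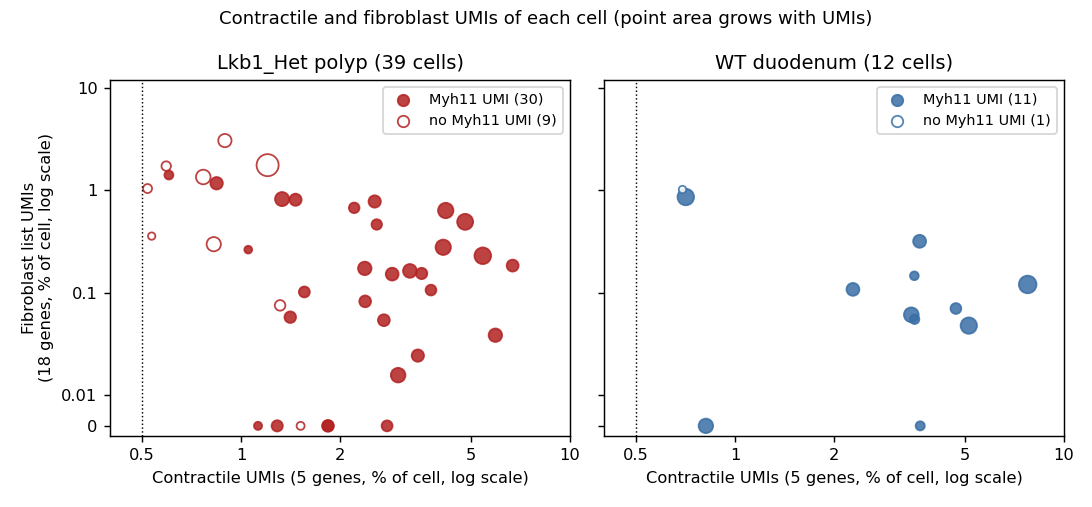
Share of UMIs from the 5 contractile genes (x, log scale, dotted line at the threshold of 0.5%) against the share from 18 fibroblast genes (y, log scale with 0 at the bottom), 1 point per contractile cell, in Lkb1_Het (left) and WT (right). Filled points have a Myh11 UMI (30 and 11 cells), open points have none (9 cells and 1 cell), and point area grows with UMIs. Open points lie at 1.52% contractile UMIs or lower, and the largest open point is the Lkb1_Het cell with 16445 UMIs.

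Single genes of the 5 were spread unevenly over cells. Des had 124 of its 236 UMIs in 1 Lkb1_Het cell, the same cell that held 60 Actg2 UMIs, 52 Myh11 UMIs and 37 Cnn1 UMIs. In WT, 1 cell held 123 of 182 Actg2 UMIs, 54 of 127 Des UMIs and 34 of 53 Cnn1 UMIs. All 5 genes were detected together in 15 of 39 Lkb1_Het cells (38.5%, interval 23.4 to 55.4%) and in 5 of 12 WT cells (41.7%, 15.2 to 72.3%). Neither Des nor Actg2 was detected in 7 of 39 and in 3 of 12.

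Cells with many Rgs5 transcripts stood out within Lkb1_Het. Rgs5, a regulator of G-protein signalling known as a marker of pericytes and vascular smooth muscle, had at least 10 UMIs in 10 of 39 Lkb1_Het cells and in 1 of 12 WT cells. Its UMIs ran to 95 in the highest Lkb1_Het cell and to 13 in the highest WT cell. At least 1 Rgs5 UMI was found in 20 of 39 Lkb1_Het cells and in 8 of 12 WT cells. The cut of 10 is on raw UMIs and so depends on depth. A WT cell of 2857 UMIs missed it with 9 Rgs5 UMIs, while an Lkb1_Het cell of 6395 UMIs passed with 15. Among the 10 Lkb1_Het cells rich in Rgs5, 9 had a Myh11 UMI, 9 a Des UMI, 3 an Actg2 UMI, 6 a UMI of Notch3, a receptor of vascular mural cells, and 0 a UMI of the fibroblast proteoglycan Dcn. Among the other 29 Lkb1_Het cells, 21 had a Myh11 UMI, 19 an Actg2 UMI, 4 a Notch3 UMI and 14 a Dcn UMI. The median depth was 3648.5 UMIs and 3962 UMIs. The cut of 10 UMIs was set after the values had been seen, and these counts describe the cells without naming a type.

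**Figure D2:**
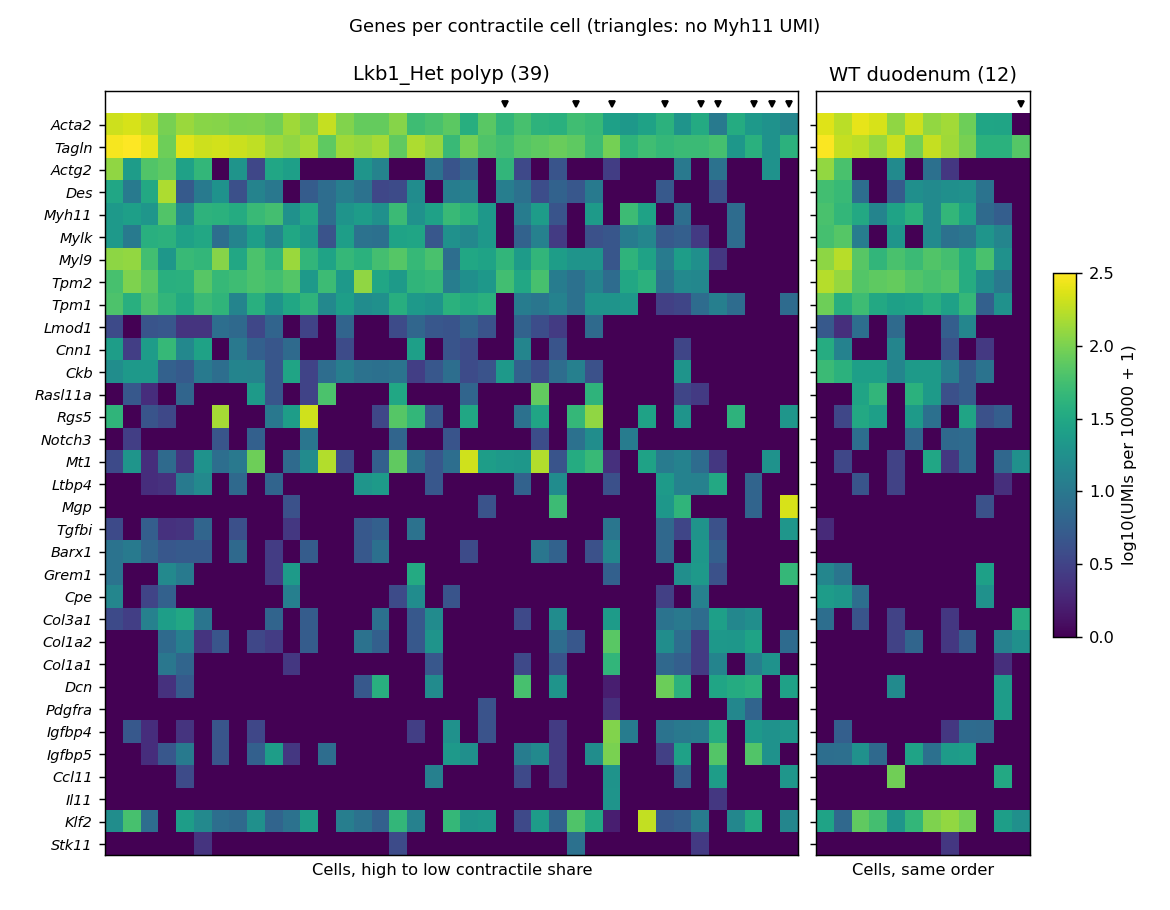
UMIs of selected genes in each contractile cell, as log10 of depth-normalised UMIs plus 1, with cells in columns from high to low contractile share in Lkb1_Het (left, 39) and WT (right, 12). Triangles mark cells with no Myh11 UMI, 9 in Lkb1_Het and 1 in WT. Contractile genes fade towards the right of the Lkb1_Het panel, where Dcn and collagen genes appear more often, and Barx1 is empty in WT.

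Stk11 was detected in few contractile cells of either library. Stk11 (chr10:80115803-80130682, plus strand, mm10) had 5 UMIs in 4 of 39 Lkb1_Het cells, 29.99 CPM (9.74 to 70.0), and 1 UMI in 1 of 12 WT cells, 17.4 CPM (0.441 to 97.0). The ratio was 1.72 with an interval of 0.193 to 81.5, so neither a loss of 1 allele nor an excess could have been seen at this depth. Over all passing barcodes the level was 38.3 CPM in Lkb1_Het and 28.7 CPM in WT. Counts from the 3′ end of transcripts would not, in any case, show whether an internal exon had been deleted. Split by Myh11 in Lkb1_Het, Stk11 had 2 UMIs in 2 of 30 Myh11-positive cells and 3 UMIs in 2 of 9 Myh11-negative cells, both at or under the floor of 3 UMIs used here for a zero count. In WT it had 1 UMI in the 11 Myh11-positive cells and 0 UMIs in the 1 Myh11-negative cell.

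The partners and targets of LKB1 were as sparse. The list of 24 genes (LKB1, its pseudokinase and scaffold partners Strada, Stradb, Cab39 and Cab39l, the AMPK subunits and the related SIK, MARK, NUAK, BRSK and SNRK kinases) had 92 UMIs in Lkb1_Het contractile cells and 31 UMIs in those of WT. That was 552 CPM and 539 CPM, a ratio of 1.02 (0.674 to 1.59), and none of the 24 reached 50 UMIs. Within Lkb1_Het the list had 623 CPM in Myh11-positive cells and 338 CPM in Myh11-negative cells, a ratio of 1.84 (1.04 to 3.53), from 78 UMIs and 14 UMIs. The Myh11-negative level leaned on 1 cell of 16445 UMIs, 39.7% of the UMIs of that set. Only 0.0122% of the UMIs of that cell were of the list, which lowers the level of the set and raises the ratio. The ratio without that cell was not computed, so no difference is read from the interval above 1. Cab39 (MO25-alpha) had 7 UMIs in Lkb1_Het and 3 UMIs in WT, and Sik1, a salt-inducible kinase, had 7 UMIs and 1 UMI. Of 17 genes of CREB and its CRTC coactivators, which LKB1-dependent kinases restrain, 3 reached 50 UMIs and 0 differed by 2-fold. Over all 632 genes compared, 9.49% were 2-fold higher and 4.43% lower, at which fewer than 1 of 3 would be called. Without the 2 WT cells of highest contractile share 2 of the 3 were lower, beside 33 of all 590 genes. Dusp1, a phosphatase, had 1355 CPM in Lkb1_Het and 2402 CPM in WT, a ratio of 0.564 (0.455 to 0.703). Nr4a1, a nuclear receptor, had 738 CPM and 766 CPM. Crem, a CREB relative, had 16 UMIs in Lkb1_Het and 0 UMIs in WT, 1.84-fold higher against a floor of 3 UMIs over the WT cells.

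Across all genes the 2 sets of contractile cells were compared where a gene had at least 50 UMIs over both. Of 632 such genes, 60 were at least 2-fold higher in Lkb1_Het (9.49%) and 28 at least 2-fold lower (4.43%), with a median log2 ratio of -0.02. This filter admits a gene through 1 library alone, so counts over genes that passed describe them and no more. The genes named here were the first 12 on either side under the same naming rule.

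Barx1 came first under the rule for naming genes. Barx1 (chr13:48662998-48666507, plus strand, mm10), a homeobox transcription factor known from the mesenchyme of the developing stomach, had 79 UMIs in 19 of 39 Lkb1_Het cells and 0 UMIs in 12 WT cells. The levels were 474 CPM (375 to 590) in Lkb1_Het and 0 CPM in WT, with an upper limit of 64.2 CPM. Barx1 was 9.07-fold higher in Lkb1_Het against a floor of 3 UMIs over the WT cells. The low end of the ratio's interval was 7.21. One Lkb1_Het cell held 22 of the UMIs, and the other 57 lay in 18 cells. Over all passing barcodes Barx1 had 153 UMIs in 70 of 8460 in Lkb1_Het and 0 UMIs in 3252 in WT, 20.8-fold higher against a floor of 3 UMIs in WT. Of these, 79 UMIs were in the contractile cells and 46 were in 32 of 228 other stromal barcodes of Lkb1_Het, which had at least 0.5% of their UMIs from 6 fibroblast genes, a set defined after the values had been seen. No UMI was found in the 33 such WT barcodes.

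Within Lkb1_Het, Barx1 was found across kinds of contractile cell. It had a UMI in 15 of 30 Myh11-positive cells (50.0%, interval 31.3 to 68.7%) and in 4 of 9 Myh11-negative cells (44.4%, 13.7 to 78.8%), with 39 UMIs and 40 UMIs. Of cells with an Actg2 UMI, 14 of 22 had one, and of cells without, 5 of 17. Among cells at or above 2% contractile UMIs it was found in 11 of 19, and below 2% in 8 of 20. All of these intervals overlap. Another factor of gut mesenchyme, Nkx2-3, known from the small intestine and spleen, had 11 UMIs in 5 Lkb1_Het cells and 10 UMIs in 5 WT cells, a ratio of 0.379 (0.146 to 0.996). Foxf1, a forkhead factor of gut mesoderm downstream of hedgehog signals, had 120 CPM and 122 CPM. Myocd, the coactivator that drives smooth muscle genes, had 9 UMIs in Lkb1_Het and 3 UMIs in WT, 54.0 CPM and 52.2 CPM. Hhip, a hedgehog-binding protein, had 33 UMIs and 7 UMIs.

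The other genes higher in Lkb1_Het differed in how many cells carried them. Over all passing barcodes the same direction was seen for Ltbp4 (23.2 CPM in Lkb1_Het and 7.12 CPM in WT), Rgs5 (19.5 and 3.01 CPM), Mgp (31.3 and 19.0 CPM), Col1a1 (18.8 and 6.85 CPM), Col1a2 (29.7 and 15.9 CPM), Col3a1 (32.3 and 12.5 CPM) and Col18a1 (24.9 and 4.52 CPM). It was not seen for Mt1, Igfbp4 or Tgfbi. Mt1, a metallothionein, had 364 UMIs in 33 of 39 Lkb1_Het cells and 17 UMIs in 7 of 12 WT cells, 2183 CPM and 296 CPM, a ratio of 7.38 (4.54 to 12.8). Mt1 was uneven over cells, with a median of 2 UMIs and a highest count of 76 in Lkb1_Het, and 1 and 5 in WT. Its level over the whole library went the other way, 1401 CPM in Lkb1_Het and 1698 CPM in WT. Ltbp4, a binding protein of latent TGF-beta, had 99 UMIs in 17 Lkb1_Het cells and 3 UMIs in 3 WT cells, a ratio of 11.4 (3.78 to 56.1). Tgfbi, a matrix protein induced by TGF-beta, had 54 UMIs in 16 cells and 1 UMI, a ratio of 18.6 (3.20 to 748). Mgp, matrix Gla protein, had 96 UMIs but in 7 of 39 Lkb1_Het cells, with 34 UMIs in 1 of them, and 2 UMIs in 1 WT cell. S100a6, a calcium-binding protein, had 4834 CPM in Lkb1_Het and 1253 CPM in WT, a ratio of 3.86 (3.03 to 4.98), beside library levels of 4204 CPM and 304 CPM. Rgs5 had 1919 CPM (1715 to 2141) in Lkb1_Het and 679 CPM (483 to 928) in WT, a ratio of 2.83 (2.02 to 4.05), while the other pericyte genes Cox4i2, Ndufa4l2 and Mcam had ratios of 0.161, 0.270 and 0.376. The pericyte list of 16 genes summed to 2831 CPM in Lkb1_Het and 2593 CPM in WT, a ratio of 1.09 (0.906 to 1.32).

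The collagen genes depended to different degrees on 1 cell, without which Col1a2 alone of those named was short of 2-fold. The deepest contractile cell, in Lkb1_Het, had 16445 UMIs and 4064 genes, 9.86% of all UMIs of the 39 cells, and no Myh11 or Des UMI. It held 71 of 104 Col1a1 UMIs, 118 of 187 Col1a2 UMIs and 172 of 231 UMIs of Igfbp4, a binding protein of insulin-like growth factors. Col1a1, a chain of type I collagen, had 624 CPM in Lkb1_Het and 17.4 CPM in WT, a ratio of 35.8 (6.29 to 1429) and a log2 ratio of 4.59, which was 3.09 without that cell. The log2 ratio of Col1a2, the other chain of type I collagen, was 1.97 with it and 0.69 without it, and that of Igfbp4 was 2.67 and 0.86. Col3a1, the chain of type III collagen, had 918 CPM in 20 Lkb1_Het cells and 209 CPM in 5 WT cells and log2 ratios of 2.08 and 1.83, but 0.54 when each cell's CPM was averaged instead of summed. That average also took Col1a2 to 0.82, and neither was then 2-fold higher. Col18a1, a basement membrane collagen, had log2 ratios of 2.55 and 1.42. The same cell held 31 of the 32 UMIs of Il11, a cytokine of the IL-6 family, found in 2 Lkb1_Het contractile cells and in 0 of 12 WT cells. Of all passing Lkb1_Het barcodes, 14 had an Il11 UMI, 45 UMIs in all.

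**Figure D3:**
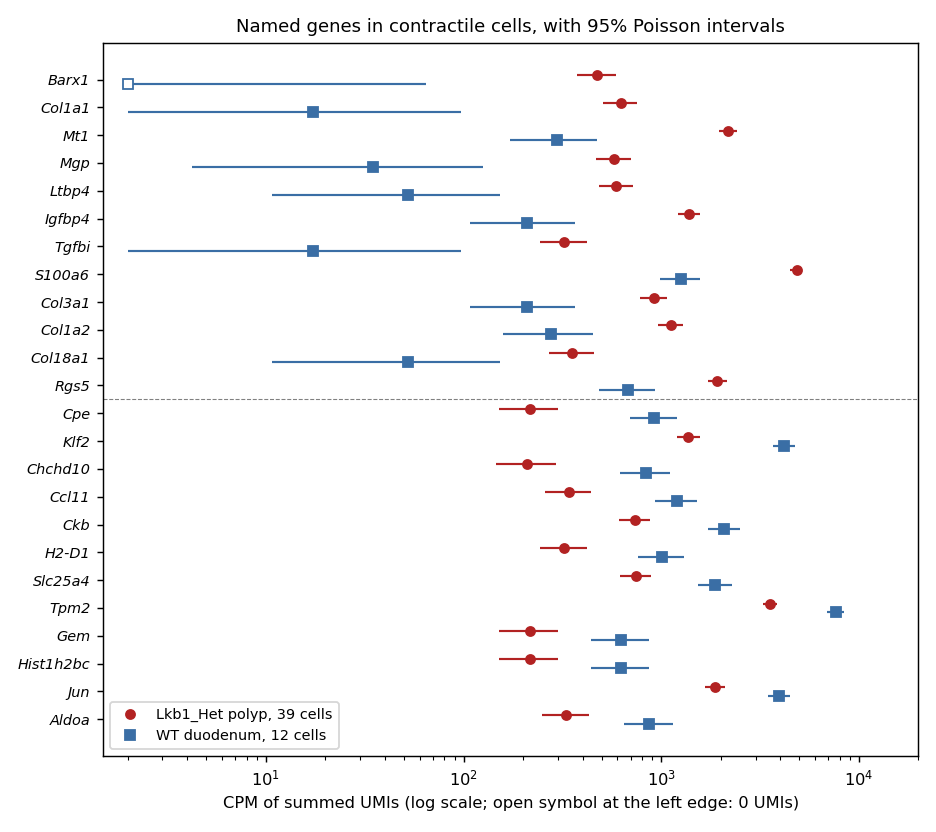
Level of the 24 named genes in contractile cells of Lkb1_Het (circles, 39 cells) and WT (squares, 12 cells), in CPM on a log scale with exact 95% Poisson intervals for counting error. Genes above the dashed line were higher in Lkb1_Het and those below it lower. Barx1 had 474 CPM in Lkb1_Het and 0 UMIs in WT, drawn as an open square at the left edge, where low interval ends are cut.

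The genes lower in Lkb1_Het depended in part on single WT cells. Klf2, a transcription factor of flow-sensing and quiescent cells, had 1373 CPM (1201 to 1563) in Lkb1_Het and 4194 CPM (3681 to 4758) in WT, a ratio of 0.327 (0.272 to 0.394), in 32 of 39 and 11 of 12 cells. Ckb, the brain-type creatine kinase, had 738 CPM in Lkb1_Het and 2088 CPM in WT, a ratio of 0.353 (0.272 to 0.458), beside library levels of 22.1 CPM and 416 CPM. Tpm2, beta-tropomyosin, had 3544 CPM and 7622 CPM, a ratio of 0.465 (0.410 to 0.527), beside library levels of 16.6 CPM and 23.7 CPM. Slc25a4, the mitochondrial ADP/ATP carrier of muscle, had 744 CPM and 1879 CPM. Jun, an immediate-early factor, had 1871 CPM and 3950 CPM, beside library levels of 1121 CPM and 1691 CPM. Cpe, a carboxypeptidase of peptide-secreting cells, had 36 UMIs in 9 Lkb1_Het cells and 53 UMIs in 4 WT cells, a ratio of 0.234 (0.149 to 0.364). Ccl11, the eosinophil chemokine eotaxin, had 57 UMIs in 8 Lkb1_Het cells and 69 UMIs in 2 WT cells, a ratio of 0.285. It was 0.668 when the WT cell with the most Ccl11 UMIs was left out and all Lkb1_Het cells were kept. The other lower genes named by the same rule were Chchd10, H2-D1, Gem, Hist1h2bc and Aldoa, with ratios of 0.251 to 0.379, and H2-D1 had library levels of 441 CPM in Lkb1_Het and 825 CPM in WT. The WT cell with the most UMIs of a gene was likewise left out for other genes, with all Lkb1_Het cells kept. Tpm2 then had a ratio of 0.616, Jun 0.635, H2-D1 0.659 and Gem 0.549, none of them 2-fold lower, while Klf2 had 0.437. Such a removal from WT alone can only bring these ratios nearer to 1 or past it when that cell is rich in the gene. Without the 2 WT cells of highest contractile share, a comparison added after the data had been seen, the log2 ratios of Ckb, Tpm2, Slc25a4 and Cpe were -0.41, -0.26, -0.90 and -0.66, short of 2-fold, and that of Klf2 was -1.96.

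The contractile genes outside the rule summed lower in Lkb1_Het, a difference that shrank when cells of high contractile share were left out. Of the 32 genes of the contractile apparatus list, 24 had at least 50 UMIs, 1 was 2-fold higher and 3 were 2-fold lower, against 9.49% and 4.43% of all genes. Their median log2 ratio was -0.25, beside -0.02 for all genes. The whole list summed to 32030 CPM in Lkb1_Het and 44968 CPM in WT, a ratio of 0.712 (0.679 to 0.747). Without the 2 WT cells of highest contractile share (9984 and 8396 UMIs), the other 10 WT cells had 1200 of the 2584 UMIs of WT and 30704 CPM, a ratio of 1.04 (0.980 to 1.11). The median log2 ratio of the 21 genes with enough UMIs was then 0.22, with 4 higher and 0 lower, beside 70 and 33 of all 590 genes. These 2 cells were chosen by contractile share and taken from WT alone, while Lkb1_Het kept its 3 cells above 5%, so a rise of the ratio was built in. With cells at or above 5% left out of both libraries, 36 and 10 cells, the ratio was 0.937 (0.879 to 1.0001). Single genes then lay on both sides of 1. Myl9 had a ratio of 0.753 (0.634 to 0.898), Tpm2 0.713 (0.595 to 0.857), Ckb 0.601 (0.406 to 0.904) and Smtn 0.729 (0.329 to 1.77). Mylk had 1.16 (0.837 to 1.63), Cnn1 2.94 (1.49 to 6.62) and Vcl 3.15 (1.28 to 10.0). The 5 genes of the rule had a ratio of 0.709 over all cells, 1.11 without the 2 WT cells and 0.949 under 5%. Myl9, the regulatory light chain, had 4000 CPM in Lkb1_Het and 7587 CPM in WT, a ratio of 0.527 (0.466 to 0.596). Without the 2 WT cells its ratio was 0.878 (0.743 to 1.04). Mylk, the light chain kinase, had 1487 CPM and 2784 CPM, a ratio of 0.534 that was 1.26 (0.919 to 1.77) without them, and Smtn, the cytoskeletal protein smoothelin, 228 CPM and 470 CPM. Cnn1, calponin, had 786 CPM (657 to 932) and 922 CPM (691 to 1206), and its intervals overlapped, whereas without the 2 WT cells its ratio was 3.41 (1.74 to 7.63). Vcl, vinculin of adhesion plaques, was the 1 gene 2-fold higher, with 390 CPM and 139 CPM, a ratio of 2.80 (1.34 to 6.76). When cells at or above 2% contractile UMIs alone were compared, 19 in Lkb1_Het and 9 in WT, the median log2 ratio of the 19 list genes with enough UMIs was -0.23. Of these genes 2 were higher and 1 lower, beside 33 and 19 of all 380 genes. The 5 genes of the rule had a median of -0.65 at the rule's threshold and -0.39 at 2%.

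Genes of excitation and calcium handling were near the limit of detection. Of 27, 4 reached 50 UMIs and 0 differed by 2-fold, beside 9.49% of all genes higher and 4.43% lower, at which fewer than 1 of 4 would be called. Pln, phospholamban, had 354 CPM in Lkb1_Het and 400 CPM in WT. Atp2a2, the calcium pump of the sarcoplasmic reticulum, had 420 CPM and 278 CPM, a ratio of 1.51 (0.867 to 2.78). Gucy1b1 and Pde5a, a subunit of the nitric oxide receptor and the phosphodiesterase that ends its signal, had ratios of 0.732 and 0.775 with intervals on both sides of 1.

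Fibroblast genes summed higher in the contractile cells of Lkb1_Het. The 18 fibroblast genes summed to 5955 CPM in Lkb1_Het and 2175 CPM in WT, a ratio of 2.74 (2.27 to 3.32). Of 7 with at least 50 UMIs, 4 were 2-fold higher (Col1a1, Col1a2, Col3a1 and Gsn) and 0 lower, with a median log2 ratio of 1.55, beside 9.49% and 4.43% of all genes. Without the deepest cell 4 had enough UMIs, 3 of them were higher, beside 47 of all 584 genes, and the median was 1.36. Pdgfra, the receptor that marks subepithelial fibroblasts, had 6 UMIs in 4 Lkb1_Het cells and 20 UMIs in 1 WT cell. The 20 genes of TGF-beta signalling and fibrosis summed to 5973 CPM in Lkb1_Het and 3533 CPM in WT. Fn1 (fibronectin), Thbs1 (thrombospondin) and Sparc were the 3 of 6 that were 2-fold higher, with ratios of 3.10, 2.81 and 2.77, beside 9.49% of all genes, and 2 of 6 were higher without the deepest cell. The median log2 ratio of these 6 was 0.87. At 2% contractile UMIs the 5 with enough UMIs had a median of -0.22 with 1 higher, beside 33 of all 380 genes. Fn1 came from 9 of 39 Lkb1_Het cells and from 1 of 12 WT cells. Among niche ligands, Igf1 had 342 CPM in Lkb1_Het and 122 CPM in WT, and Grem1, a BMP antagonist of muscularis cells, 540 CPM in 11 Lkb1_Het cells and 626 CPM in 3 WT cells.

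Immediate-early and heat shock genes gave counts that turned with the cells compared. Of 24 immediate-early and heat shock genes, 19 reached 50 UMIs, 4 were 2-fold higher in Lkb1_Het (Klf6, Hspa1b, Hsp90aa1 and Dnajb1) and 1 lower (Jun), beside 9.49% and 4.43% of all genes, with a median log2 ratio of 0.12. At 2% contractile UMIs 2 of 18 were higher and 4 lower, beside 33 and 19 of all 380 genes, with a median of -0.30. Without the 2 WT cells of highest contractile share 5 of 19 were higher and 4 lower, beside 70 and 33 of all 590 genes, with a median of -0.29. Dnajb1, a heat shock co-chaperone, had 558 CPM in Lkb1_Het and 139 CPM in WT, a ratio of 4.01 (1.95 to 9.55). Fos had 5110 CPM and 8684 CPM, and Atf3 1559 CPM and 2680 CPM. The list summed to 32792 CPM and 38895 CPM. Nuclear genes of oxidative phosphorylation, 12 of 20 with enough UMIs, had a median log2 ratio of -0.48, with 0 higher and 1 lower, near the 4.43% of all genes, and without those 2 WT cells it was -0.12, with 1 higher and 0 lower. The 13 mitochondrial genes had 64001 CPM in Lkb1_Het and 69801 CPM in WT.

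**Figure D4:**
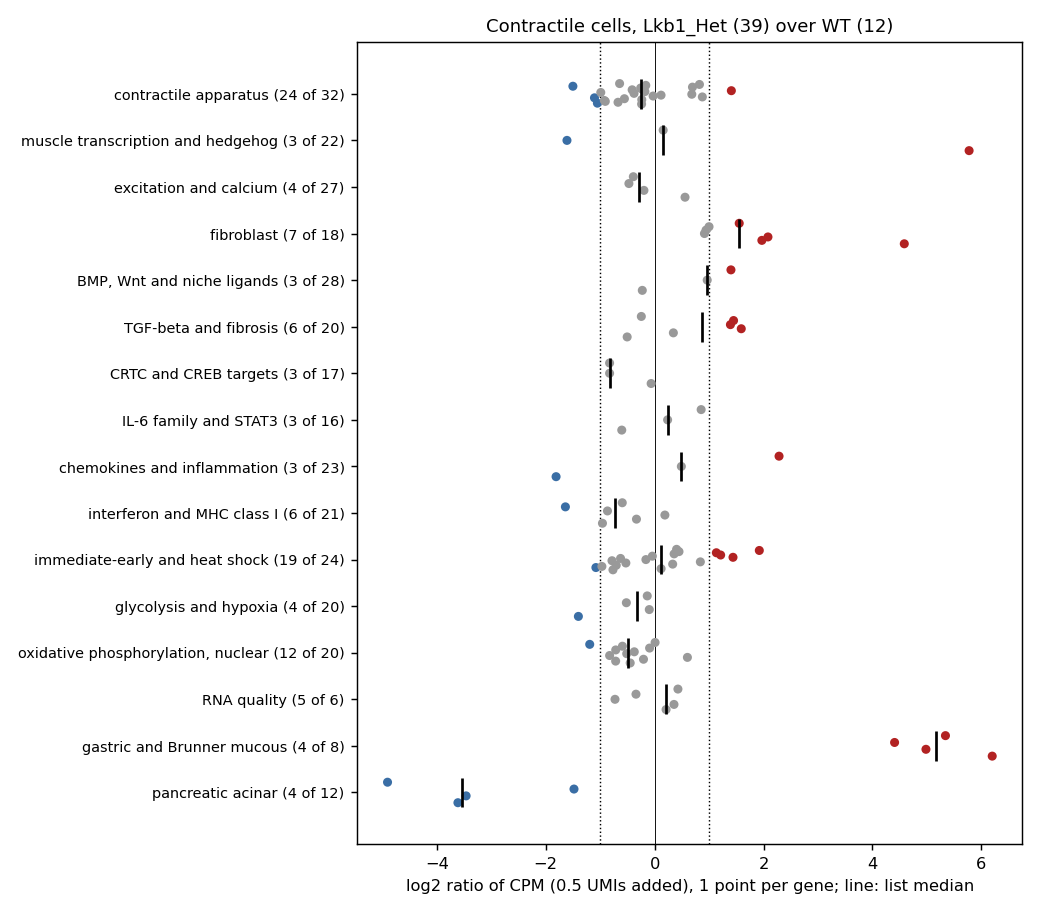
Log2 ratio of CPM in contractile cells, Lkb1_Het (39) over WT (12), 1 point per gene with at least 50 UMIs, for each list with 3 or more such genes. Black lines are list medians, dotted lines mark 2-fold, and brackets give genes shown of genes listed. The contractile apparatus has a median of -0.25 (0.22 without 2 WT cells) and the fibroblast list of 1.55, and the medians of the mucous and acinar lists lie farthest from 0.

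Myh11-positive and Myh11-negative contractile cells of Lkb1_Het were compared next, 30 against 9 cells with 125275 and 41473 UMIs. Myh11 belongs to the rule, and so does the contractile share that goes with it, so this split describes the cells the rule brought together. The contractile share per cell ran in Myh11-positive cells from 0.603% over a median of 2.57% to 6.69%, and in Myh11-negative cells from 0.519% over 0.826% to 1.52%. The fibroblast share had a median of 0.158% in Myh11-positive cells and 1.04% in Myh11-negative cells. Median depth was 3763.5 UMIs and 2664 UMIs. Depth bears on the split: after thinning to 1000 UMIs, Myh11 was expected in 69.6% of the 35 Lkb1_Het cells and 86.6% of the 11 WT cells that were deep enough, and without thinning it was found in 28 of the same 35 (80.0%) and in 11 of the same 11 (100%). At a threshold of 2% contractile UMIs, no Myh11-negative cell remained in either library.

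Of 478 genes with at least 50 UMIs, 61 were at least 2-fold higher in Myh11-positive cells (12.8%) and 39 at least 2-fold lower (8.16%). Of 19 contractile apparatus genes with enough UMIs, 15 were higher and 0 lower, with a median log2 ratio of 1.44 beside 0.03 for all genes. Without the deepest cell 16 of 19 were higher, beside 54 of all 423 genes. Cnn1 (chr9:22099216-22109630, mm10) had 131 UMIs in 17 of 30 Myh11-positive cells and 0 UMIs in 9 Myh11-negative cells. Against a floor of 3 UMIs this was 14.5-fold higher, and the low end of the ratio's interval was 11.6. Mylk had 239 UMIs in 30 of 30 and 9 UMIs in 3 of 9, a ratio of 8.79 (4.55 to 19.5). Myl9 had 5077 CPM in Myh11-positive cells and 747 CPM in Myh11-negative cells, a ratio of 6.79 (4.74 to 10.1), and Tpm2 4478 CPM and 723 CPM, a ratio of 6.19 (4.29 to 9.26). Lmod1, leiomodin of actin filament ends, had 35 UMIs in 21 of 30 cells and 0 UMIs in 9. Cald1 (caldesmon), Vim (vimentin) and Vcl had ratios of 1.004, 1.13 and 0.935, whose intervals held 1.

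Other genes were also higher in Myh11-positive cells, of which Ckb was in the contractile apparatus list and the others were not. Rasl11a, a small GTPase, had 91 UMIs in 12 of 30 Myh11-positive cells and 1 UMI in 1 of 9 Myh11-negative cells, a ratio of 30.1 (5.27 to 1203). Rgs5 had 305 UMIs in 18 of 30 and 15 UMIs in 2 of 9, a ratio of 6.73 (4.02 to 12.2). Ckb had a ratio of 7.81 (3.26 to 24.5), Mustn1, a small musculoskeletal protein, 4.97 (3.04 to 8.66), and Mt1 4.69 (3.10 to 7.42). Pcp4l1, a calmodulin-binding peptide, had 53 UMIs in 18 of 30 cells and 0 UMIs in 9. Mgll, monoacylglycerol lipase, had 50 UMIs in 13 cells and 1 UMI in 1. Dstn, an actin-severing protein, had a ratio of 3.71 (2.55 to 5.58).

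Fibroblast and secreted genes were on the other side. All 5 fibroblast genes with at least 50 UMIs (Col1a1, Col1a2, Col3a1, Dcn and Gsn) were 2-fold lower in Myh11-positive cells, beside 8.16% of all 478 genes. Their median log2 ratio was -2.43. The list summed to 3145 CPM in Myh11-positive cells and 14443 CPM in Myh11-negative cells, a ratio of 0.218 (0.191 to 0.248). The deepest cell supplied 39.7% of the UMIs of the Myh11-negative set. Igfbp4 had 152 CPM in Myh11-positive cells and 5112 CPM in Myh11-negative cells, 33.7-fold lower, with a log2 ratio of -5.04 that was -3.38 without that cell. Col1a1 had 144 CPM and 2074 CPM, with log2 ratios of -3.82 and -2.07, and Igfbp5 543 CPM and 5281 CPM, with -3.27 and -2.07. Sparc, with -2.07, was -0.54 without the cell and so no longer 2-fold lower. Ecm1, an extracellular matrix protein, and Ifi27l2a, an interferon-inducible protein, did not rest on it, with log2 ratios of -3.13 and -3.34 for Ecm1 and -2.38 and -2.49 for Ifi27l2a. Ccl11, Col18a1, Sod3, Gsn and Anxa2 completed the lower genes named by the rule. Mitochondrial genes were at 72058 CPM in Myh11-positive cells and 39664 CPM in Myh11-negative cells, a ratio of 1.82 (1.72 to 1.92), and gastric mucous genes were at 18791 CPM and 14564 CPM. The deepest cell was low in both, at 1.99% and 0.608% of its UMIs, which lowers the Myh11-negative levels. Per cell, the mitochondrial share had medians of 5.87% in Myh11-positive and 4.53% in Myh11-negative cells. The ratio without the deepest cell was not computed.

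**Figure D5:**
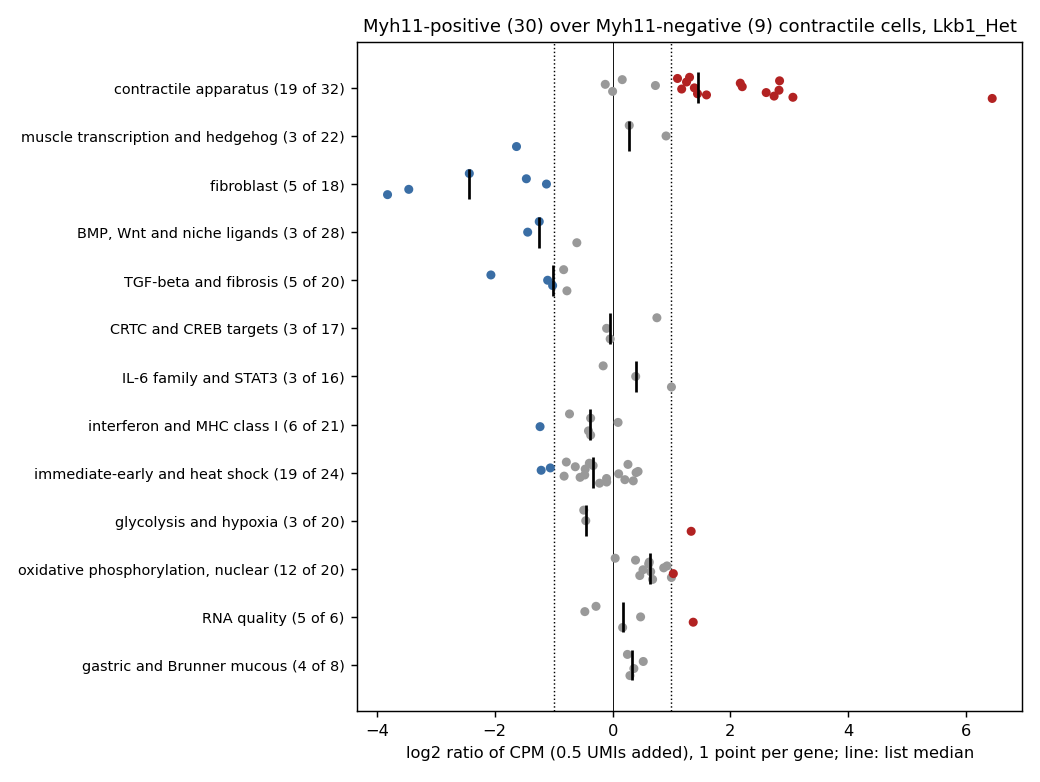
Log2 ratio of CPM, Myh11-positive (30) over Myh11-negative (9) contractile cells of Lkb1_Het, 1 point per gene with at least 50 UMIs, for each list with 3 or more such genes. Black lines are list medians and dotted lines mark 2-fold. Of the contractile genes 15 of 19 lie past 2-fold to the right, with a median of 1.44, and fibroblast genes to the left with a median of -2.43.

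The upstream DNA of genes that went with Myh11 is shown because contractile genes are known to be driven by serum response factor and myocardin through a site of 10 bases, the CArG box, which was searched on both strands. In RefSeq promoters of build GRCm38.p6, 31 of the 32 contractile apparatus genes had an entry, and 5 of these (16.1%) held a CArG box in the 250 bases before the transcript start. Of all 27025 genes with a promoter entry 439 did (1.62%). The 5 genes were Filip1l, Ldb3, Myl6, Myl9 and Vcl. The box of Myl9 began 161 bases before the start, that of Myl6 50 bases and that of Filip1l 62 bases, and all 3 genes were 2-fold higher in Myh11-positive cells of Lkb1_Het (log2 ratios 2.74, 1.59 and 1.31). Vcl, with a box 227 bases before the start, was not (-0.12), and of all contractile apparatus genes compared 15 of 19 (78.9%) were, with or without a box. Of the genes of the rule, Acta2 and Des had entries and no exact match in this window, and Tagln, Myh11 and Actg2 are only named. A match is a description of the letters and not a site of binding. Capitals mark the CArG box, and the sequence of Acta2, which has none of this exact form, is given for comparison, each 5′ to 3′ on the gene's strand up to the base before the start.
Myl9, chr2:156775214-156775463, plus strand: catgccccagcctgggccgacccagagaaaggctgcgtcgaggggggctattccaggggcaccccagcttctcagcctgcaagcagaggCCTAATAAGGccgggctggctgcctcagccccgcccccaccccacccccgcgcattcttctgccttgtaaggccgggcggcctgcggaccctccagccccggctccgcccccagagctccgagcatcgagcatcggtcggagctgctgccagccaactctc
Myl6, chr10:128493010-128493259, minus strand: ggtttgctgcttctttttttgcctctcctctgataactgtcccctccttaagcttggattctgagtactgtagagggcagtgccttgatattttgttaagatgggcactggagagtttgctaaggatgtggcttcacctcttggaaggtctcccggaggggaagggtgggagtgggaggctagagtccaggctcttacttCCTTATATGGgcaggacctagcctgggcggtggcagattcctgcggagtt
Filip1l, chr16:57548992-57549241, plus strand: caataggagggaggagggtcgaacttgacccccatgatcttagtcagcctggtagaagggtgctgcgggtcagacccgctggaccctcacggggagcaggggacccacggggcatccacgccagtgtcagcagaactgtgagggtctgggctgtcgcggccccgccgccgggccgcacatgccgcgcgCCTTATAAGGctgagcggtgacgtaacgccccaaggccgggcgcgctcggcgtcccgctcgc
Acta2, chr19:34255374-34255623, minus strand: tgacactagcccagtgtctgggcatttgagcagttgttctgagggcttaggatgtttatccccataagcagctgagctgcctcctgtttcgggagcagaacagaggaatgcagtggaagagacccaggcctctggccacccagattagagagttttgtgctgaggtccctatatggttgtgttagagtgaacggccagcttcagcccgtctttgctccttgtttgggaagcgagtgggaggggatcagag

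In WT the same split left 1 Myh11-negative cell, and its values are those of that cell. It had 582 UMIs, 4 of them of Tagln and 0 of Acta2, with 1.03% fibroblast UMIs. Of 185 genes with at least 50 UMIs, 40 were 2-fold higher in the 11 Myh11-positive cells (21.6%) and 59 lower (31.9%). Malat1, a nuclear RNA that nearly all intact cells hold, and Actb, cytoplasmic actin, had 956 UMIs and 744 UMIs in the Myh11-positive cells and 0 UMIs in the Myh11-negative cell. Against a floor of 3 UMIs they were 3.26-fold and 2.54-fold higher, and the low ends of their ratio intervals were 2.65 and 2.06. Cst3, cystatin C, and Prdx1, a peroxiredoxin, had 7 UMIs and 5 UMIs in that cell, with ratios of 0.0819 (0.0372 to 0.213) and 0.102 (0.0410 to 0.329). This contrast rests on 1 cell of low depth.

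The genes whose per-cell level was most like that of Myh11 included contractile genes in both libraries, beside genes outside the contractile lists. Acta2, Tagln and Des belong to the rule that chose the cells. Over the 39 Lkb1_Het cells and 5078 genes, Pearson's r of log-normalised UMIs was 0.84 for Mylk, 0.67 for Tpm2, 0.66 for Tpm1, 0.65 for Myl9, 0.63 for Lmod1, 0.60 for Dstn, 0.60 for Acta2, 0.56 for Mustn1, 0.54 for Calm2 (calmodulin) and 0.52 for Tagln. Over the 12 WT cells and 4262 genes the leading genes were Tpm2 at 0.95, Dstn at 0.94, Acta2 at 0.92, Filip1l at 0.89 and Tpm1 at 0.89. Next came Myl9 at 0.88, Atp5md at 0.84, Dynll1 at 0.84, Actb at 0.83 and Flna at 0.81. Of these WT genes, Dstn, Atp5md, Dynll1 and Actb are not in the contractile lists, and neither are Dstn, Mustn1 and Calm2 in Lkb1_Het. Mylk, first in Lkb1_Het, was at 0.45 in WT. The points share their library and their depth, and with 12 cells such values are imprecise.

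Set beside the other stromal barcodes of the same library, 228 in Lkb1_Het and 33 in WT, the contractile cells differed in the genes that had defined the 2 sets, which is no finding. Genes outside both definitions were as follows. Cnn1 had 786 CPM in contractile cells and 3.86 CPM in other stromal barcodes of Lkb1_Het, and 922 CPM and 0 CPM in WT. Rgs5 had 1919 CPM and 359 CPM in Lkb1_Het and 679 CPM and 10.2 CPM in WT. Barx1 had 474 CPM and 88.9 CPM in Lkb1_Het and 0 CPM in both sets of WT. Ltbp4 and Mgp were lower in contractile cells, with 594 CPM and 576 CPM against 1105 CPM and 2301 CPM in other stromal barcodes of Lkb1_Het. Klf2 had 1373 CPM and 1064 CPM in Lkb1_Het and 4194 CPM and 2827 CPM in WT, so its lower level in Lkb1_Het was seen in both stromal sets. Stk11 had 29.99 CPM and 61.8 CPM in Lkb1_Het and 17.4 CPM and 55.9 CPM in WT, from 5 and 32 UMIs and from 1 and 11 UMIs.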

How the data were processed

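Droplet 3′ single-cell RNA-seq was deposited as filtered gene-by-barcode matrices of UMI counts, 1 library per genotype, each from 3 pooled mice that cannot be told apart. Per the submitters' processing notes, reads were processed with Cell Ranger 3.0.0 against mm10. The deposited matrix header names 5.0.0. The deposited UMI counts are not normalized and cover 32285 features. Gene positions are of GENCODE M21 on mm10, and promoters are RefSeq, GRCm38.p6.

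From these counts, barcodes were filtered and selected as described, UMIs were summed over cells and divided by the total of the set (CPM). Poisson, conditional binomial and Clopper-Pearson intervals were computed, and 0.5 UMIs were added for log2 ratios only. A count of 0 was given a floor of 3 UMIs over the group. Genes with at least 50 UMIs over both sets counted as compared, and 2-fold as different. Named genes were the top 12 per direction by the interval bound of the ratio closest to 1, if that bound exceeded 1.5-fold. They needed a UMI in at least 10% of the cells of the higher set and a CPM there no lower than over all passing barcodes of its library. The 5 genes of the rule, sex-linked markers, predicted genes and genes of ribosomes, mitochondria, haemoglobin and antibodies stayed out of the ranking. Members of the gene lists were named besides. The contractile cells, gene lists and rules were chosen with earlier results of these data known. Scrublet (in scanpy 1.11.5) marked 0 barcodes in either library and thus did not work, so doublets were not removed, and removing the highest scores was an alternative. Python 3.11.15, numpy 2.4.6, scipy 1.17.1 and pandas 2.3.3 were used, and the ratio calculation was tested on simulated data. Alternatives were another contractile share, mitochondrial limit, gene filter, averaging, thinning and the removal of single kinds of cell.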

Additional observations from a re-analysis of the deposited data

Results flagged for a closer look

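Barx1 transcripts were also found in barcodes outside the comparisons. In Lkb1_Het, 13 Barx1 UMIs lay in 12 of 5867 barcodes that failed the filters, 1.31 CPM (0.700 to 2.25), and in WT 0 UMIs lay in 6698 such barcodes, which allows up to 0.213 CPM.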

How the results depend on the processing

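No paired analysis was possible because each group was 1 library with no replicate number, and for the same reason no replicate could be left out. The share of contractile cells in Lkb1_Het relative to WT ranged from 0.812 at a threshold of 2% contractile UMIs to 1.499 without the 2 WT cells of highest contractile share. At 2%, Myh11 had a UMI in 100% of contractile cells of both libraries, beside 76.9% and 91.7%, so the Myh11 split has no value there, and 33 of 380 genes were 2-fold higher in Lkb1_Het, beside 60 of 632. With a gene filter of 20 UMIs, 204 genes were higher and 143 lower in Lkb1_Het than in WT, and 179 genes in Lkb1_Het and 84 in WT were higher in Myh11-positive cells. With no gene filter these counts were 1795, 2495, 1570 and 1806, beside 60, 28, 61 and 40, since many more genes with few UMIs were compared. The log2 ratio of Igfbp4, Lkb1_Het over WT, reversed to -1.31 at 2% contractile UMIs from 2.67. The cause was not tested, and it was 0.86 without the deepest cell. Of the 24 genes named for Lkb1_Het over WT, 23 kept their direction at 2% and 24 in each of the other 6 alternatives for cells and averaging. Past 2-fold were 20 at 2%, 20 under the mean of per-cell CPM, 20 without the 2 WT cells, 21 without the deepest cell, 23 without cells with an Epcam UMI and 24 in the other 2. All 24 named for the Myh11 split in Lkb1_Het kept it under 7 alternatives, 23 past 2-fold without the deepest cell and 24 in the others. Leaving out the 2 WT cells could not change this split, and a rule without Myh11 chose the same 30 and 9 cells. These alternatives therefore had a fixed outcome. Depth limits Stk11 and the LKB1 partners to a handful of UMIs per gene.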
